A study of Mus musculus with 2 samples.

Results

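Foxp3-positive regulatory T cells (Treg cells) were examined in mouse oral carcinomas after Momordicine-I, a triterpenoid of bitter melon, or vehicle. A barcode was kept when it held 1 or more UMIs of Foxp3 and 1 or more of Cd3d, Cd3e and Cd3g together. It also had to hold no UMI of Cd79a, a B cell gene, and at most 1% of its UMIs from the neutrophil genes S100a8, S100a9, G0s2, Csf3r and Retnlg. Of 7734 filtered barcodes 174 met these conditions, 68 of 4370 in the Momordicine-I library and 106 of 3364 in the vehicle library. The cells were thus chosen by their Foxp3, Cd3, Cd79a and neutrophil gene UMIs, and the levels of these genes are given below only as a description.

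All mice were female C57BL/6 animals of 6 to 7 weeks that carried flank tumours of MOC2, a mouse oral cancer line implanted in Matrigel. Mice given Momordicine-I received 30 mg/kg by intraperitoneal injection each day, dissolved in DMSO and Captisol, and vehicle mice received the same solvent. Each group had 10 mice. Tumours of 3 mice of each group were pooled, sorted with a CD45 antibody and propidium iodide, and made into 1 library of 10x Genomics 3′ counts. With 1 library per group no test between groups was possible. Intervals are 95% intervals that cover counting error only, so they leave out differences between mice and between cells.

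Treg cells are CD4 T cells that restrain other immune cells, and they depend on the forkhead factor Foxp3. They take up interleukin-2 through a high-affinity receptor whose alpha chain is Il2ra, and they carry Ctla4, which removes co-stimulatory ligands from antigen-presenting cells. In tumours, Treg cells are often of an activated effector type. Mouse Treg cells of non-lymphoid tissue are known for Klrg1, the interleukin-33 receptor Il1rl1 and the growth factor Areg.

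Foxp3 lies on the plus strand of chromosome X at 7573644 to 7595245 in GRCm38 (GENCODE), and Il2ra on the plus strand of chromosome 2 at 11642807 to 11693193. The 250 bases upstream of a RefSeq start site of each gene (GRCm38.p6) are shown, since these genes define the cells and the receptor they use. They are chrX:7580233-7580482 and chr2:11642542-11642791, both on the plus strand. Capitals mark matches, on either strand, to TTCNNNGAA, the palindrome bound by STAT factors, which act downstream of the interleukin-2 receptor.
Foxp3: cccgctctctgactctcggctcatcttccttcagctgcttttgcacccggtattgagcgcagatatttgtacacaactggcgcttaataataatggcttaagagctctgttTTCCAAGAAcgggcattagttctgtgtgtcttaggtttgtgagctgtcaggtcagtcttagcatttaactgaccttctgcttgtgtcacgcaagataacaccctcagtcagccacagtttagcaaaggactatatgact
Il2ra: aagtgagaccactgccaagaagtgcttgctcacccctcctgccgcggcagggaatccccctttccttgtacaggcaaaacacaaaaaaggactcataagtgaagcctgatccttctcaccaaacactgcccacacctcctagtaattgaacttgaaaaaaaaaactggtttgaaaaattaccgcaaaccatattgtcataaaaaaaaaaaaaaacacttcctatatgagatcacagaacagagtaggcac
The Foxp3 window held 1 STAT match, a motif found in 7.02% of 32851 promoter windows of this length. Foxp3 has 2 annotated start sites, and the window shown is the one with a match, whereas the 7.02% is a share of single windows. The Il2ra window held none. Neither window held the forkhead motif GTAAACA, which 3.17% of windows have, or the AP-1 motif TGANTCA, which 6.75% have. The window at the other annotated Foxp3 start site and that of Ctla4 held none of the 3 motifs. These are matches of letters only and say nothing of binding.

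The libraries held 4693 barcodes with 41804810 UMIs for Momordicine-I and 3642 barcodes with 33998491 UMIs for vehicle. The 2 libraries shared 10 barcode sequences, none of them a Treg cell's. Summed over cells, Treg cells gave 889296 UMIs with Momordicine-I and 1489693 with vehicle. Their median depth was 9446 UMIs (1276 to 51707) with Momordicine-I and 8851.5 UMIs (1544 to 117493) with vehicle. Levels are given as CPM, counts per 1e+06 UMIs summed over the cells of a library.

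The cells carried the markers of Treg cells. Il2ra had a UMI in 65 of 68 Momordicine-I cells and 98 of 106 vehicle cells. Ikzf2, a transcription factor of the Ikaros family typical of Treg cells, was seen in 67 of 68 Momordicine-I cells and 102 of 106 vehicle cells. Ctla4 was seen in 61 Momordicine-I cells and 94 vehicle cells, and Tnfrsf9, the co-stimulatory receptor 4-1BB, in 64 Momordicine-I cells and 98 vehicle cells. Cd4 is a low transcript and had a UMI in 41 of 68 Momordicine-I cells and 78 of 106 vehicle cells. At 2000 UMIs per cell, which left out 2 Momordicine-I and 3 vehicle cells, the share with an Ikzf2 UMI was 84.8% with Momordicine-I and 82.5% with vehicle.

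The number of Foxp3 UMIs per cell was low and similar in both libraries. The median was 4 UMIs (1 to 18) with Momordicine-I and 4.5 (1 to 19) with vehicle, and 15 Momordicine-I and 23 vehicle cells had a single Foxp3 UMI. Foxp3 UMIs in cells that should lack the gene were rare. Among B cells, 0 of 89 Momordicine-I cells had one, which allows a share of cells with a UMI of up to 3.37% (3 counts; 4.06% by the exact interval), and 5 of 228 vehicle cells did (2.19%). Median depth of these B cells was 4922 UMIs with Momordicine-I and 6107 with vehicle. Among barcodes with at least 5% neutrophil RNA and no Cd3 UMI, 0.811% of Momordicine-I and 0.914% of vehicle barcodes had a Foxp3 UMI. Their median depths were 4992 UMIs with Momordicine-I and 6146 with vehicle.

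Cells with more Foxp3 also held the other markers more often. All of Il2ra, Ikzf2 and Ctla4 were seen in 33 of 33 Momordicine-I cells and 49 of 53 vehicle cells with at least 5 Foxp3 UMIs. With 2 to 4 Foxp3 UMIs, 17 of 20 Momordicine-I cells and 23 of 30 vehicle cells had all 3 markers. With a single Foxp3 UMI this held for 7 of 15 Momordicine-I cells and 16 of 23 vehicle cells. Depth differed between these strata as well, from a median of 6648 UMIs at 1 Foxp3 UMI to 12309 at 5 or more with Momordicine-I, and from 5027 to 11671 with vehicle. In the Momordicine-I stratum with 1 Foxp3 UMI, Trdc, the constant gene of the T cell receptor delta chain, reached 363 CPM, against 124 CPM in the same stratum with vehicle. Of the T cells without a Foxp3 UMI, 55 of 372 with Momordicine-I and 24 of 341 with vehicle held all 3 markers. At the limit on neutrophil RNA, 3 Momordicine-I and 4 vehicle cells lay just inside, between 0.5 and 1%. Just outside, between 1 and 2%, lay 6 Momordicine-I and 4 vehicle barcodes, and all 10 held all 3 markers.

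Some gated cells also carried RNA of another cell type, and the type differed between libraries. A cell was called an other-lineage cell when markers of monocytes and macrophages, dendritic cells, NK cells, gamma-delta T cells, B cells, basophils and mast cells, or carcinoma and stroma gave at least 5 UMIs and 0.03% of its UMIs. There were 21 such cells of 68 with Momordicine-I and 24 of 106 with vehicle. They were deep, with medians of 17749 UMIs with Momordicine-I and 18328.5 with vehicle, and held 48.5% and 43.0% of all Treg UMIs in the Momordicine-I and vehicle libraries. Dendritic cell markers made 7 of these cells with Momordicine-I and 0 with vehicle, and summed to 636 CPM with Momordicine-I (7 of 7 markers detected) and 24.2 CPM with vehicle (5 of 7, Clec9a and Fscn1 at 0). Monocyte and macrophage markers summed to 882 CPM with Momordicine-I and 1569 CPM with vehicle, with 8 of 8 detected in each. NK cell markers summed to 123 CPM with Momordicine-I and 377 CPM with vehicle, 5 of 6 detected and Klra8 at 0 in each. A single cell held 55.0% of these UMIs with Momordicine-I, and a single cell 34.4% with vehicle. Gamma-delta T cell markers summed to 254 CPM with Momordicine-I (6 of 7, 5830411N06Rik at 0) and 72.5 CPM with vehicle (7 of 7). B cell markers stayed at 8.996 CPM with Momordicine-I (Cd79b alone of 6) and 14.1 CPM with vehicle (4 of 6, Cd79a and Pax5 at 0). Neutrophil markers, which did not define other-lineage cells, summed to 1689 CPM with Momordicine-I and 2922 CPM with vehicle, with 7 of 7 detected in each. A single vehicle cell held 39.2% of the vehicle UMIs of these neutrophil markers.

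**Figure D1:**
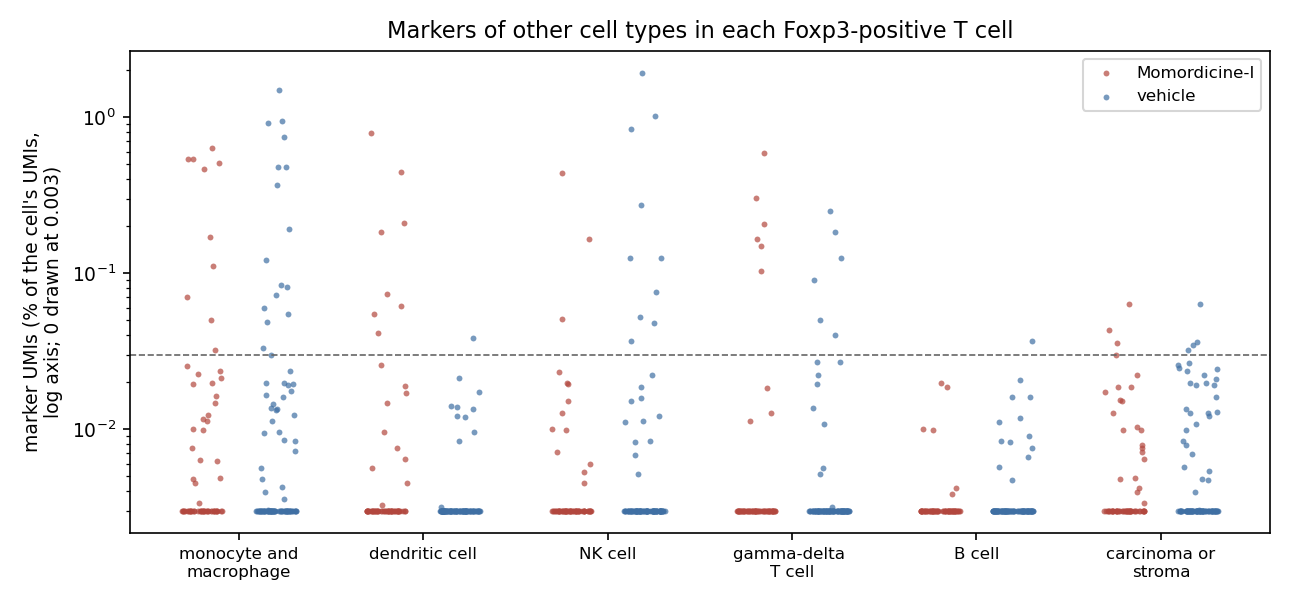
Each point is a Foxp3-positive T cell, placed by the share of its UMIs that came from the markers of another cell type (log axis, 0 drawn at 0.003), with Momordicine-I left of vehicle for each type. The dashed line is the 0.03% limit; dendritic cell markers lie above it mainly in Momordicine-I cells.

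Without other-lineage cells 47 Momordicine-I and 82 vehicle Treg cells were left, with 457842 UMIs for Momordicine-I and 849763 for vehicle. Dendritic cell markers then summed to 28.4 CPM with Momordicine-I and 20.01 CPM with vehicle, and monocyte and macrophage markers to 56.8 CPM with Momordicine-I and 43.5 CPM with vehicle. NK cell markers were at 17.5 CPM with Momordicine-I and 18.8 CPM with vehicle, and gamma-delta markers at 2.18 CPM with Momordicine-I and 14.1 CPM with vehicle. Neutrophil markers, part of which the gate itself limits, summed to 1614 CPM with Momordicine-I and 1225 CPM with vehicle. This subset was defined after the values had been seen, and many results below are given for both sets. Where no set is named, the value is of all gated cells.

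Treg cells called by a Foxp3 UMI were a smaller part of the sorted cells after Momordicine-I. They made up 1.56% of filtered barcodes (68 of 4370, exact interval 1.21 to 1.97%) with Momordicine-I and 3.15% (106 of 3364, 2.59 to 3.80%) with vehicle. The ratio was 0.494 (0.359 to 0.676), and it was 0.441 (0.302 to 0.639) without other-lineage cells. Counting only cells with at least 5 Foxp3 UMIs, 33 Momordicine-I and 53 vehicle cells gave a ratio of 0.479. The sort held many neutrophils, and over barcodes with at most 1% neutrophil RNA the shares were 4.26% with Momordicine-I and 7.75% with vehicle, a ratio of 0.549 (0.399 to 0.751).

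Other T cells with a Cd4 or Cd8 transcript were lower too, so the share depended on its denominator. Foxp3-negative Cd4 T cells, which held Cd4 but no Foxp3, Cd8a or Cd8b1 UMI, made up 1.24% of barcodes with Momordicine-I and 3.33% with vehicle (ratio 0.371, 0.263 to 0.518). T cells with Cd8a or Cd8b1 made up 0.686% with Momordicine-I and 1.63% with vehicle (0.420, 0.260 to 0.667). T cells with Trdc or Tcrg-C1, genes of the gamma-delta receptor, were higher, at 4.35% with Momordicine-I and 2.41% with vehicle (1.81, 1.39 to 2.37). Among all Cd3-gated T cells, Treg cells therefore made up 15.5% with Momordicine-I (68 of 440) and 23.7% with vehicle (106 of 447), a ratio of 0.652 (0.473 to 0.892). Among T cells with a Cd4 UMI the shares were close, at 40.2% with Momordicine-I (41 of 102) and 39.0% with vehicle (78 of 200), a ratio of 1.03 (0.688 to 1.52). This denominator was added after seeing the data. Among T cells that held Cd4 and no Cd8a or Cd8b1 UMI, which leaves out 1 Momordicine-I and 16 vehicle Treg cells with Cd4, the shares were 42.6% with Momordicine-I (40 of 94) and 35.6% with vehicle (62 of 174). That ratio was 1.19 (0.782 to 1.81). A difference in either direction was not detectable with either denominator at this number of cells. Among T cells left after other-lineage cells, which takes out gamma-delta cells as well, the share was 26.0% with Momordicine-I and 28.8% with vehicle (ratio 0.903, 0.617 to 1.31).

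**Figure D2:**
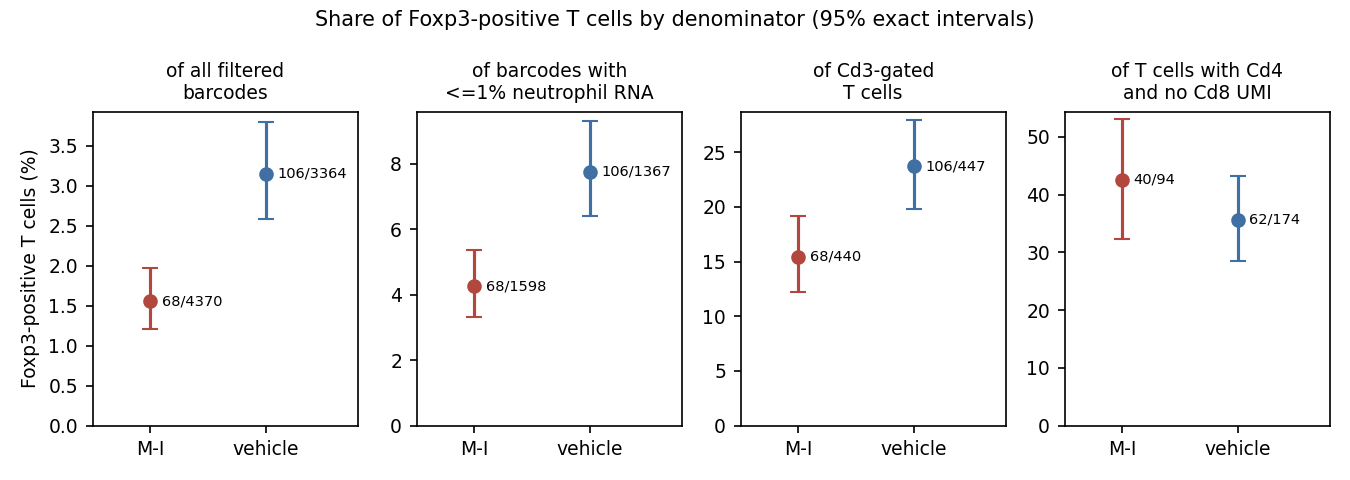
Share of Foxp3-positive T cells (%, y axis) in the Momordicine-I (M-I) and vehicle libraries over 4 denominators, with exact 95% intervals and the cells counted. The share was lower with Momordicine-I over all filtered barcodes (1.56% against 3.15%) and over T cells, and not over T cells with a Cd4 and no Cd8a or Cd8b1 UMI (42.6% against 35.6%).

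Within each library, Treg cells were set against the 54 Momordicine-I and 112 vehicle Foxp3-negative Cd4 T cells, the population most like them. The Treg gate itself set no condition on Cd4, Cd8a or Cd8b1, and CD8 T cell markers did not define other-lineage cells. These markers summed to 279 CPM with Momordicine-I and 167 CPM with vehicle in Treg cells. In the comparison cells, where the gate bars Cd8a and Cd8b1, they summed to 235 CPM with Momordicine-I and 69.9 CPM with vehicle. These comparison cells had median depths of 6299 UMIs with Momordicine-I and 7436.5 with vehicle. Of them, 8 with Momordicine-I and 21 with vehicle were other-lineage cells, which held 25.5% and 60.8% of the UMIs. With vehicle, carcinoma and stroma markers summed to 1569 CPM in the comparison cells, and a single cell held 87.4% of these UMIs. A gene was counted when it differed at least 2-fold in the same direction in both libraries, among 6655 genes with 20 UMIs in each library. Higher in Treg cells were 291 genes (4.37%), and lower were 53 (0.796%). Without other-lineage cells the shares were 8.29% higher and 2.03% lower of 4971 genes. The median log2 ratio of all genes was 0.24 with Momordicine-I and 0.23 with vehicle.

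The genes that set Treg cells apart from Foxp3-negative Cd4 T cells included several of the effector type. Klrg1, an inhibitory lectin receptor that binds cadherins, is encoded on the minus strand of chromosome 6 at 122270596 to 122282882. It had 280 CPM in Treg and 18.0 CPM in Foxp3-negative Cd4 T cells with Momordicine-I, a 15.5-fold difference (7.75 to 36.3). With vehicle it had 363 CPM in Treg and 5.92 CPM in Cd4 cells, a 61.3-fold difference (33.1 to 129). Gzmb, the cytotoxic protease granzyme B on chromosome 14 (56258838 to 56262260, minus strand), was 7.64-fold higher with Momordicine-I, at 724 CPM in Treg and 94.7 CPM in Cd4 cells. With vehicle it was 37.3-fold higher, at 1192 CPM in Treg and 32.0 CPM in Cd4 cells. Against all Foxp3-negative T cells the log2 ratio of Gzmb was smaller, 0.97 with Momordicine-I and 1.35 with vehicle. Foxp3-negative T cells that held Il2ra, Ikzf2 and Ctla4 had 780 CPM of Gzmb with Momordicine-I and 1982 CPM with vehicle. Gzmb thus did not set Treg cells apart from those cells. Penk, the precursor of enkephalin peptides, was 11.6-fold higher with Momordicine-I and 74.0-fold with vehicle. It was found in few cells, 19 of 68 with Momordicine-I and 31 of 106 with vehicle. Tnfrsf8, the receptor CD30, had 64 UMIs in Treg cells with Momordicine-I and none in the Cd4 cells, which makes it at least 10.6-fold higher against a floor of 3 counts over the library. With vehicle, 87 Treg UMIs stood against 4 in Cd4 cells, a 24.7-fold difference. Itgb8, the integrin chain that helps to activate latent TGF-beta, was 26.8-fold higher with vehicle (11.1 to 83.9). With Momordicine-I it had 55 Treg UMIs and 1 Cd4 UMI, and that ratio of 27.4 has an interval of 4.72 to 1102.

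Transcription factors made up another group. Ikzf2 was 4.70-fold higher with Momordicine-I, at 1177 CPM in Treg and 250 CPM in Cd4 cells. With vehicle it was 17.3-fold higher, at 1168 CPM in Treg and 67.5 CPM in Cd4 cells. Its Treg level hardly differed between libraries, whereas its level in the Foxp3-negative Cd4 cells was higher with Momordicine-I. Maf, which drives interleukin-10 expression in T cells, was 4.89-fold higher with Momordicine-I and 7.65-fold with vehicle, and Hopx, a homeodomain cofactor, 5.11-fold with Momordicine-I and 11.9-fold with vehicle. Against all Foxp3-negative T cells the log2 ratio of Maf with Momordicine-I was 0.64, which is below the 2-fold limit. Il2ra was 3.37-fold higher with Momordicine-I (829 CPM in Treg, 246 CPM in Cd4 cells) and 9.72-fold with vehicle (1048 CPM in Treg, 108 CPM in Cd4 cells). Ctla4 was 3.26-fold higher with Momordicine-I and 5.85-fold with vehicle, and Tnfrsf9 3.24-fold with Momordicine-I and 8.52-fold with vehicle. The rule also named Pcyt1a, Pcsk1, Bmyc, H2afz, Laptm4b and Ttc39c, which were between 3.43-fold and 57.5-fold higher. Pcsk1 encodes a convertase that cleaves prohormones such as the product of Penk, and it had 26 Momordicine-I and 41 vehicle Treg cells with a UMI. Of 12 measured Treg identity genes 7 passed the fold in both libraries, and of 23 effector and suppressive genes 12 did, with none lower.

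Genes of resting and recirculating T cells were lower. Tcf7 encodes the naive and memory factor TCF-1 and lies on the minus strand of chromosome 11 at 52252371 to 52283014. It had 18.0 CPM in Treg and 208 CPM in Cd4 cells with Momordicine-I, a ratio of 0.0867 (0.0476 to 0.148). With vehicle it had 49.7 CPM in Treg and 256 CPM in Cd4 cells, a ratio of 0.194 (0.150 to 0.249). Lef1, its relative, had ratios of 0.177 with Momordicine-I and 0.346 with vehicle. S1pr1, the receptor by which lymphocytes leave tissue, had 0.164 with Momordicine-I and 0.262 with vehicle. The survival factor Bcl2 had 0.119 with Momordicine-I and 0.306 with vehicle. Satb1, a chromatin organiser, had ratios of 0.310 with Momordicine-I and 0.511 with vehicle, so it missed the 2-fold limit with vehicle. The rule also named Ramp3, Gtf2i, Fam102a, Gramd3 and Sh3bp5, with ratios of 0.269 to 0.418. Of 12 measured genes of the resting list 5 were lower in both libraries and 0 higher.

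Without other-lineage cells Klrg1 was 18.2-fold higher in Treg cells with Momordicine-I and 57.2-fold with vehicle. Gzmb was 13.7-fold higher with Momordicine-I and 97.2-fold with vehicle, and Ikzf2 5.28-fold with Momordicine-I and 15.7-fold with vehicle. With vehicle the log2 ratio of Il2ra was 2.44, against 3.28 in all gated cells, and that of Ctla4 1.94, against 2.55. Cd81, a tetraspanin, joined the named genes at 12.6-fold with Momordicine-I and 19.3-fold with vehicle. In all gated cells its vehicle ratio was 2.17. A single barcode of 442133 UMIs lay among the vehicle Cd4 cells there. Tcf7 had ratios of 0.0174 with Momordicine-I, from 2 Treg UMIs (0.00207 to 0.0648), and 0.0609 with vehicle. Igfbp4, an insulin-like growth factor binding protein found in naive T cells, had 0.0212 with Momordicine-I (0.00252 to 0.0797) and 0.0134 with vehicle.

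**Figure D3:**
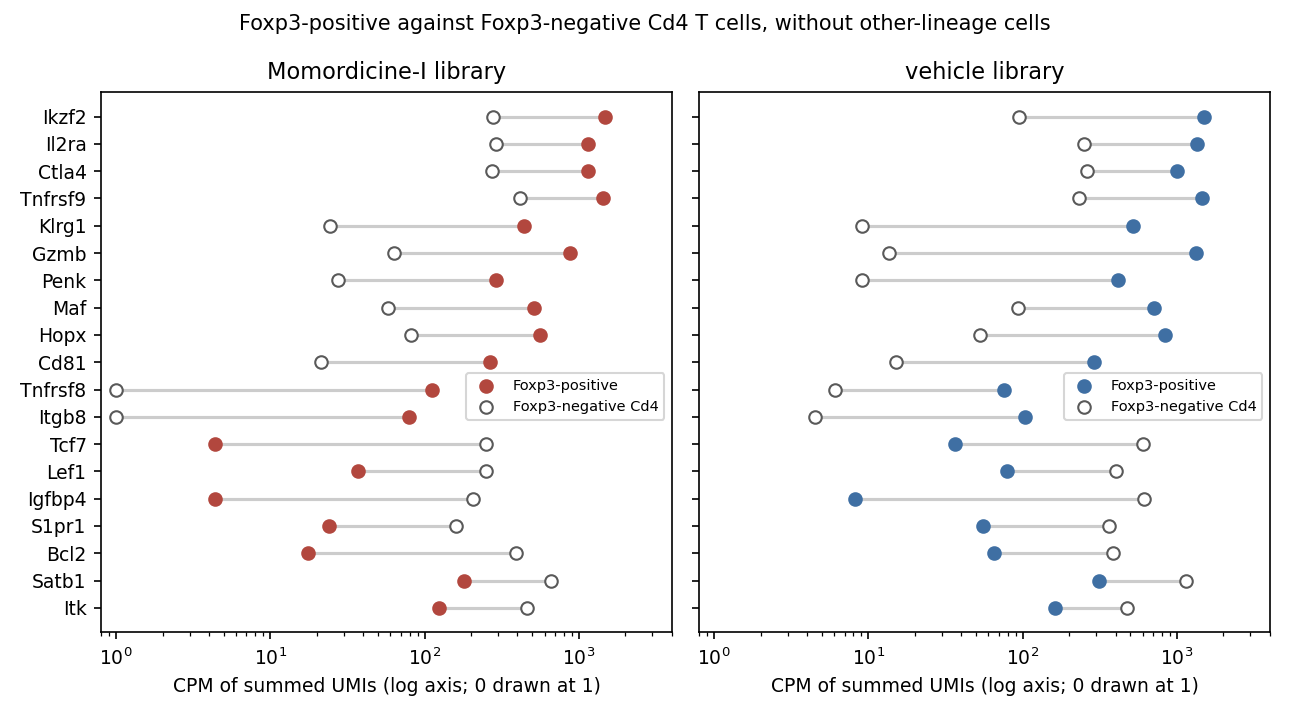
CPM (log axis, 0 drawn at 1) of named genes in Foxp3-positive T cells (filled) and Foxp3-negative Cd4 T cells (open) without other-lineage cells, in the Momordicine-I and the vehicle library. The upper 12 genes lie to the right in Treg cells and the lower 7 to the left in both libraries; Klrg1 is 18.2-fold and 57.2-fold higher.

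Treg cells were not uniform. Klrg1 had a UMI in 49 of 68 Momordicine-I and 77 of 106 vehicle cells, and these cells were deeper than the others. Medians were 10045 and 6677 UMIs for Klrg1-positive and Klrg1-negative cells with Momordicine-I, and 9308 and 7323 with vehicle. Without other-lineage cells they were 8906 and 5621 UMIs with Momordicine-I, and 8813 and 4984.5 with vehicle. Without other-lineage cells, 37 Klrg1-positive cells with Momordicine-I had 977 CPM of Gzmb and 10 Klrg1-negative cells 153 CPM. With vehicle, 60 Klrg1-positive cells had 1458 CPM of Gzmb and 22 Klrg1-negative cells 731 CPM. Penk ran the same way, at 333 CPM in Klrg1-positive and 0 CPM in Klrg1-negative cells with Momordicine-I, and at 466 CPM in Klrg1-positive and 202 CPM in Klrg1-negative cells with vehicle. Ikzf2 differed little between them, with 1459 CPM in Klrg1-positive and 1546 CPM in Klrg1-negative cells with Momordicine-I, and 1485 and 1551 CPM in the same classes with vehicle. Klf2, a factor that keeps T cells quiescent and recirculating, was lower in Klrg1-positive cells, at 514 against 1546 CPM with Momordicine-I and 1023 against 1689 CPM with vehicle. Bcl2 had 37.6 CPM in Klrg1-positive and 183 CPM in Klrg1-negative vehicle cells, and 17.5 and 17.0 CPM in these classes with Momordicine-I. Areg and Il1rl1 did not follow Klrg1 in both libraries. Areg had 135 CPM in Klrg1-positive and 119 CPM in Klrg1-negative cells with Momordicine-I, and 343 and 504 CPM with vehicle. Il1rl1 had 426 CPM in Klrg1-positive and 561 CPM in Klrg1-negative cells with Momordicine-I, and 615 and 523 CPM with vehicle. The 10 Klrg1-negative Momordicine-I cells held 58854 UMIs in all, so low genes were not resolved in them.

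Some Treg cells were dividing. At least 3 UMIs of 11 mitotic genes were held by 15 of 68 Momordicine-I cells (22.1%, exact interval 12.9 to 33.8%) and 24 of 106 vehicle cells (22.6%, 15.1 to 31.8%). Among Foxp3-negative Cd4 T cells this held for 1 of 54 with Momordicine-I and 7 of 112 with vehicle. Dividing cells were deep, with medians of 15732 UMIs with Momordicine-I and 20913 with vehicle. At 2000 UMIs per cell the shares were 7.58% of 66 Momordicine-I and 6.80% of 103 vehicle Treg cells. Without other-lineage cells, 12 of 47 Momordicine-I and 12 of 82 vehicle Treg cells met the limit (25.5% with Momordicine-I and 14.6% with vehicle), with intervals that overlap. T cell receptor beta V segments gave no measure of clonality, since 3 of 68 Momordicine-I and 8 of 106 vehicle cells had a UMI of one.

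Several genes that define Treg cells had close levels in the 2 libraries. Ikzf2 had 1177 CPM with Momordicine-I and 1168 CPM with vehicle, a ratio of 1.01 (0.933 to 1.09), and 0.982 without other-lineage cells. Ctla4 had 743 CPM with Momordicine-I and 738 CPM with vehicle (1.01, 0.913 to 1.11), and Tnfrsf9 1031 CPM with Momordicine-I and 1074 CPM with vehicle (0.960, 0.884 to 1.04). Without other-lineage cells their ratios were 1.14 (1.02 to 1.27) for Ctla4 and 0.993 for Tnfrsf9. Il2ra was lower, at 829 CPM with Momordicine-I and 1048 CPM with vehicle (0.791, 0.724 to 0.864), and without other-lineage cells 1145 CPM with Momordicine-I and 1347 CPM with vehicle (0.849, 0.765 to 0.943). Foxp3, which chose the cells, had 376 CPM with Momordicine-I and 397 CPM with vehicle. The co-stimulatory receptors Tnfrsf18 (GITR) and Tnfrsf4 (OX40) had ratios of 0.979 and 0.970. Across all 8564 measured genes, those with at least 20 UMIs over both libraries, the median log2 ratio was -0.04. Of these genes 8.91% were at least 1.5-fold higher with Momordicine-I and 13.3% at least 1.5-fold lower. Counts of list members below are to be read beside such shares of all genes. Of 13 measured Treg identity genes 2 were higher, Nrp1 and Gpr83, and 0 lower, with a median of -0.01. Without other-lineage cells, where 10.4% of 6839 genes were higher and 12.6% lower, the same 2 were higher and 4 of 13 were lower, Ikzf4, Lrrc32, Itgae and Socs2, with a median of -0.13. Socs2, a feedback inhibitor of cytokine receptors, had a ratio of 0.495 (0.302 to 0.784) there and 0.885 in all gated cells. Ikzf4, the Ikaros factor Eos, had 0.661 (0.472 to 0.913) there and 0.838 in all gated cells. Nrp1, a semaphorin receptor carried by thymus-derived Treg cells, had 43.9 CPM with Momordicine-I and 20.1 CPM with vehicle (2.18, 1.32 to 3.63), and a ratio of 2.32 (1.24 to 4.40) without other-lineage cells.

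Granzyme B, Hopx and Lag3 were among the effector genes with lower levels after Momordicine-I. Gzmb had 724 CPM with Momordicine-I and 1192 CPM with vehicle (0.607, 0.554 to 0.665), and without other-lineage cells 871 CPM with Momordicine-I and 1323 CPM with vehicle (0.659, 0.586 to 0.739). Fewer cells held it, 36 of 68 with Momordicine-I and 71 of 106 with vehicle. At 2000 UMIs per cell the shares were 33.3% with Momordicine-I and 47.6% with vehicle. Hopx had 380 CPM with Momordicine-I and 650 CPM with vehicle (0.584, 0.515 to 0.662), and a ratio of 0.677 without other-lineage cells, just short of the 1.5-fold limit. Maf had ratios of 0.722 (0.634 to 0.820) in all gated cells and 0.715 without other-lineage cells, and Klrg1 0.771 (0.661 to 0.898) and 0.850 (0.716 to 1.01) in the same sets. Lag3, an inhibitory receptor for MHC class II, had 15 UMIs in 10 Momordicine-I cells and 78 UMIs in 21 vehicle cells (0.322, 0.172 to 0.564). NK cell markers were lower with Momordicine-I in the gated cells, and their part in this was not tested. Lag3 had a ratio of 0.550 (0.216 to 1.24) without other-lineage cells. Of 25 measured effector and suppressive genes 1 was higher, Cd83, and 4 lower, Ccr8, Gzmb, Lag3 and Hopx, a share near that of all genes. Without other-lineage cells 2 were higher, Il10 and Pdcd1, and 3 lower, Ccr8, Gzmb and Lag3. Il10 was rare, and its log2 ratio of -0.12 in all gated cells changed sign in 7 of 13 alternatives. Cd83, also a marker of activated dendritic cells, had 314 CPM with Momordicine-I and 109 CPM with vehicle, and without other-lineage cells 175 CPM with Momordicine-I and 124 CPM with vehicle (1.41, 1.04 to 1.91). Pdcd1, the checkpoint receptor PD-1, had 209 CPM with Momordicine-I and 143 CPM with vehicle (1.46), and without other-lineage cells 284 CPM with Momordicine-I and 186 CPM with vehicle (1.53, 1.20 to 1.94).

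Tissue repair genes were mixed. Areg, a growth factor for epithelium, had 178 CPM with Momordicine-I and 283 CPM with vehicle (0.627, 0.519 to 0.755). A single Momordicine-I cell held 38.0% of its UMIs there, and without other-lineage cells Areg had 133 CPM with Momordicine-I and 373 CPM with vehicle (0.357, 0.267 to 0.471). Il1rl1, the receptor for interleukin-33, had 314 CPM with Momordicine-I and 448 CPM with vehicle (0.701, 0.607 to 0.807), and a ratio of 0.742 (0.627 to 0.874) without other-lineage cells. Gata3 and Rora, factors of tissue Treg cells, had ratios of 0.933 and 0.979. Tnfsf11, the ligand RANKL, was higher, at 47.2 CPM with Momordicine-I and 18.8 CPM with vehicle (2.51, 1.52 to 4.21), and its ratio was 2.47 (1.41 to 4.39) without other-lineage cells. It was seen in 21 of 68 Momordicine-I and 12 of 106 vehicle cells.

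Genes of resting cells were lower with Momordicine-I. The list had a median log2 ratio of -0.53 over 12 measured genes, with 5 lower and 2 higher, and -0.78 over 11 genes without other-lineage cells, with 8 lower and 2 higher. Klf2 had 631 CPM with Momordicine-I and 1008 CPM with vehicle (0.626, 0.567 to 0.690), and without other-lineage cells 647 CPM with Momordicine-I and 1147 CPM with vehicle (0.563, 0.493 to 0.642). Tcf7 was seen in 6 of 68 Momordicine-I cells and 19 of 106 vehicle cells, with 18.0 CPM with Momordicine-I and 49.7 CPM with vehicle (0.362, 0.197 to 0.628). Without other-lineage cells, 2 Tcf7 UMIs in 1 Momordicine-I cell stood against 31 in 11 vehicle cells (0.120, 0.0139 to 0.471). Lef1 had a ratio of 0.621 (0.403 to 0.936), and 0.471 (0.259 to 0.811) without other-lineage cells. Bcl2 was not past the limit in all gated cells (0.770), and its ratio was 0.270 (0.111 to 0.570) without other-lineage cells. Ccr7, the lymph node chemokine receptor that mature dendritic cells also carry, went the other way. It had 484 CPM with Momordicine-I and 50.3 CPM with vehicle, and without other-lineage cells 103 CPM in 7 Momordicine-I cells and 42.4 CPM in 16 vehicle cells, where a single Momordicine-I cell held 42.6% of its UMIs.

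Chemokine receptors had a median log2 ratio of -0.42 over 15 measured genes in all gated cells, where 4 were lower and 1 higher. Without other-lineage cells their median was -0.61 over 15, where 8 were lower (53.3%) and 3 higher (20%). Of all genes 13.3% were lower and 8.91% higher in the first set, and 12.6% and 10.4% in the second. Ccr2, which draws cells towards inflamed tissue, had 381 CPM with Momordicine-I and 510 CPM with vehicle (0.748), and without other-lineage cells 336 CPM with Momordicine-I and 615 CPM with vehicle (0.547, 0.454 to 0.655). Cxcr4, the receptor for Cxcl12, was higher, at 376 CPM with Momordicine-I and 213 CPM with vehicle without other-lineage cells (1.76, 1.42 to 2.19), against a ratio of 1.16 in all gated cells. Itgae, the alpha chain of the integrin CD103 that binds E-cadherin, had a ratio of 0.824 (0.635 to 1.06) in all gated cells. It had 76.4 CPM with Momordicine-I and 171 CPM with vehicle without other-lineage cells (0.448, 0.300 to 0.652). Ecm1, a secreted matrix protein, had 85.5 CPM with Momordicine-I and 185 CPM with vehicle (0.463, 0.354 to 0.599), and a ratio of 0.494 without other-lineage cells.

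Some activation and immediate early genes were lower. Fos had 1055 CPM with Momordicine-I and 1672 CPM with vehicle (0.631, 0.585 to 0.680), and without other-lineage cells 970 CPM with Momordicine-I and 2012 CPM with vehicle (0.482, 0.433 to 0.535). Dusp2, a phosphatase induced by the T cell receptor, had 138 CPM with Momordicine-I and 258 CPM with vehicle (0.535, 0.433 to 0.657), and a ratio of 0.444 (0.330 to 0.589) without other-lineage cells. Irf1, an interferon-induced factor, had 95.6 CPM with Momordicine-I and 167 CPM with vehicle (0.572), and a ratio of 0.369 (0.246 to 0.539) without other-lineage cells. The 16 AP-1 and immediate early genes had a median of -0.19, and 2 were lower, a share near the background, and 0 higher. Without other-lineage cells the median was -0.35, and 4 of 16 were lower, Fos, Fosb, Dusp2 and Zfp36, and 0 higher. The 12 heat shock and dissociation genes had a median of 0.11, and 0.14 without other-lineage cells, with none past the limit in either set. Glycolysis genes had a median of -0.39 over 16 genes, with 3 lower (Slc2a1, Hk2 and Slc16a3) and 0 higher. Without other-lineage cells their median was -0.20, with 2 lower (Slc2a1 and Slc2a3). Of all genes 13.3% were lower in the first set and 12.6% in the second. The 28 oxidative phosphorylation genes had a median of 0.01 with none past the limit, and 0.06 with 1 higher (Atp5g1) without other-lineage cells.

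**Figure D4:**
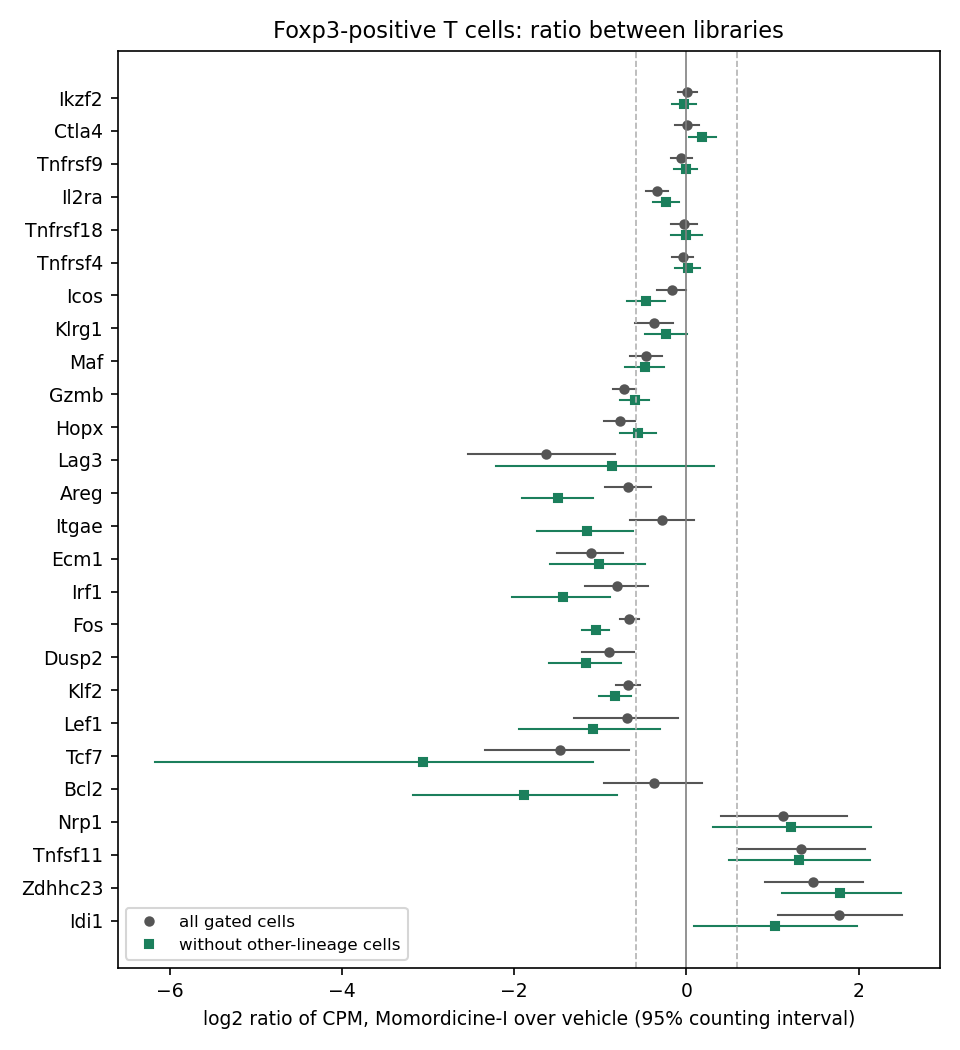
Log2 ratio of CPM, Momordicine-I over vehicle (x axis), for 26 genes in all gated Foxp3-positive T cells (circles) and without other-lineage cells (squares), with 95% counting intervals and dashed lines at 1.5-fold. Ikzf2, Ctla4 and Tnfrsf9 lie near 0, whereas Gzmb, Klf2 and Ecm1 lie below it and Tnfsf11, Zdhhc23 and Idi1 above it in both sets of cells.

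Sterol synthesis genes were higher with Momordicine-I. The list had a median log2 ratio of 0.50 over 14 measured genes, with 6 higher and 1 lower (Fdft1), and 0.62 over 11 genes without other-lineage cells, with 7 higher and 0 lower. Idi1, an isomerase of the isoprenoid pathway, had 59.6 CPM with Momordicine-I and 17.5 CPM with vehicle (3.41, 2.10 to 5.69), and a ratio of 2.04 (1.06 to 3.94) without other-lineage cells. Cyp51, a sterol demethylase, had 57.3 CPM with Momordicine-I and 27.5 CPM with vehicle (2.08, 1.35 to 3.22), and a ratio of 1.86 (1.08 to 3.19) without other-lineage cells. Their counts were low, with 51 Momordicine-I and 41 vehicle UMIs of Cyp51. With the cells that scored highest as doublets removed, the median was 0.12, and Msmo1 turned to a log2 ratio of -0.014.

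Cell cycle genes turned with the set of cells. In all gated cells the list had a median of -0.48 over 29 genes, with 11 lower and 0 higher. Stmn1, a microtubule regulator of dividing cells, had 75.3 CPM with Momordicine-I and 174 CPM with vehicle (0.433, 0.326 to 0.569). Without other-lineage cells the median was 0.52 over 28 genes, with 11 higher and 0 lower, and Stmn1 had a ratio of 1.33 (0.949 to 1.84). Mki67, a proliferation marker, had ratios of 0.797 in all gated cells and 1.86 (1.42 to 2.43) without other-lineage cells, where a single cell held 34.5% of its Momordicine-I and 38.1% of its vehicle UMIs. Of the 24 vehicle other-lineage cells 12 met the limit for dividing cells, against 3 of 21 with Momordicine-I. Interferon response genes turned too, with a median of 0.16 over 35 genes and -0.18 over 29 without other-lineage cells. Ifit1 and Rsad2, antiviral genes, were higher in both sets, but without other-lineage cells a single cell held 82.1% of the Momordicine-I UMIs of Ifit1 and 100% of those of Rsad2.

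**Figure D5:**
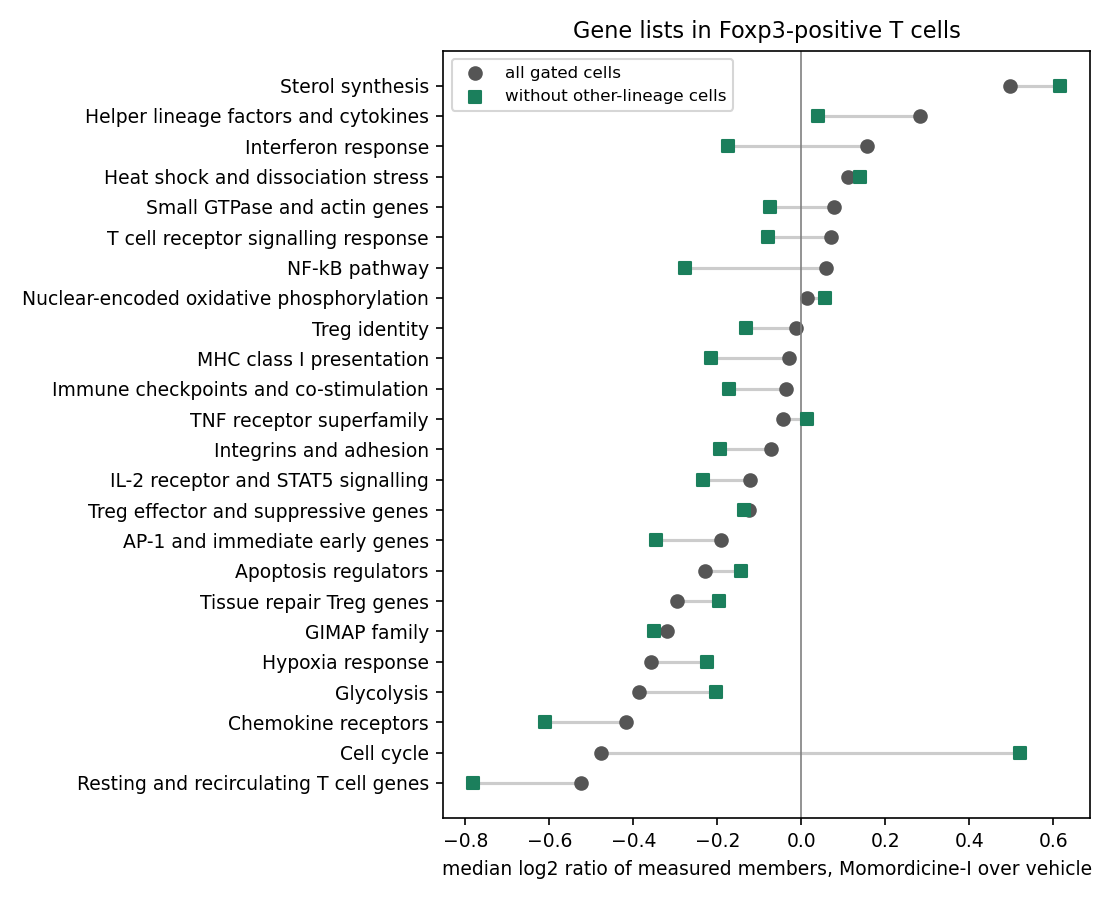
Median log2 ratio, Momordicine-I over vehicle (x axis), of the measured members of 24 gene lists in all gated Foxp3-positive T cells (circles) and without other-lineage cells (squares). Sterol synthesis lies highest (0.50 and 0.62) and resting T cell genes lowest (-0.53 and -0.78), while the cell cycle list crosses 0 (-0.48 and 0.52).

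Of the genes named by rank in all gated cells, several are known from myeloid cells. The higher ones were Fabp5, Ccdc88a, Cd63, Cbfa2t3, Lrrk1, Etv3, Cd83, Idi1, Polb, Tff1, Zdhhc23 and Lsp1, with ratios of 2.08 to 4.97. Fabp5, a fatty acid carrier, had 1496 CPM with Momordicine-I and 315 CPM with vehicle (4.75, 4.27 to 5.29). Without other-lineage cells it had 496 CPM with Momordicine-I and 258 CPM with vehicle, and a single Momordicine-I cell held 59.9% of its UMIs. Lsp1, an actin-binding protein of leukocytes, had a ratio of 2.08 in all gated cells and 1.00 without other-lineage cells. Cbfa2t3 and Lrrk1 had 2 UMIs each with Momordicine-I without other-lineage cells, with ratios of 0.412 (0.0434 to 1.99) and 0.928 (0.0839 to 6.48). Ccdc88a, which links growth factor signals to actin, had a ratio of 3.21 (1.45 to 7.46) without other-lineage cells, from 19 and 11 UMIs with Momordicine-I and vehicle. Zdhhc23, a palmitoyl transferase encoded on the minus strand of chromosome 16 at 43965033 to 43979791, had 82.1 CPM with Momordicine-I and 29.5 CPM with vehicle (2.78, 1.89 to 4.14), and without other-lineage cells 118 CPM with Momordicine-I and 34.1 CPM with vehicle (3.46, 2.16 to 5.63). It was seen in 24 of 68 Momordicine-I cells and 18 of 106 vehicle cells. Tff1, a trefoil peptide of mucosal tissue, had 126 CPM in 16 Momordicine-I cells and 46.3 CPM in 19 vehicle cells (2.72, 2.00 to 3.73), and a ratio of 1.82 (1.23 to 2.69) without other-lineage cells.

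The lower ones were Cxcl3, Cyp4f18, Rgcc, Vegfa, Lif, Stmn1, Tgfbi, Fn1, Gadd45a, Ecm1 and Smc2, with ratios of 0.123 to 0.503. Tgfbi and Fn1, which macrophages make, had ratios of 1.10 and 0.742 without other-lineage cells. Cxcl3, a neutrophil-attracting chemokine, had 41.6 CPM with Momordicine-I and 339 CPM with vehicle (0.123, 0.0854 to 0.172). It was seen in 28 of 68 Momordicine-I and 63 of 106 vehicle cells, and had a ratio of 0.210 without other-lineage cells, where a single vehicle cell held 54.6% of its UMIs. Neutrophil markers were lower with Momordicine-I in all gated cells and higher without other-lineage cells, and their part in the Cxcl3 levels was not tested. Rgcc, a regulator of the cell cycle, had ratios of 0.346 in all gated cells and 0.495 (0.266 to 0.870) without other-lineage cells, and Gadd45a, a stress-induced gene, 0.362 and 0.361 (0.136 to 0.822) in the same sets. Lif, a cytokine, came from 4 Momordicine-I and 16 vehicle cells, and a single cell held 71.4% of its Momordicine-I UMIs.

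The same rule without other-lineage cells named Zdhhc23, Rapsn, Mrpl42, Lig1, Cxcr4, Tnfsf11, Hist1h1c, Nudcd2, Nap1l1, Hspa9, Ndrg1 and H2afz as higher, with ratios of 1.43 to 3.46. Rapsn, known for clustering acetylcholine receptors at the muscle synapse, had 89.6 CPM in 17 Momordicine-I cells and 34.1 CPM in 19 vehicle cells (2.62, 1.59 to 4.38). Within each library it was higher in Treg than in Foxp3-negative Cd4 T cells, 5.92-fold with Momordicine-I and 11.3-fold with vehicle. Lower were Areg, Gadd45g, Skp1a, Fos, Irf1, Bcl2, Dusp2, Icam1, Klf2, Itgae, Ccr2 and Lif, with ratios of 0.270 to 0.563. Icam1, an adhesion ligand for the integrin LFA-1, had 98.3 CPM with Momordicine-I and 231 CPM with vehicle (0.426, 0.301 to 0.592). Gadd45g, a stress gene induced by T cell activation, had 59.0 CPM with Momordicine-I and 187 CPM with vehicle (0.315, 0.201 to 0.476).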

How the data were processed

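The authors deposited raw UMI counts of 32285 genes for 2 libraries of CD45-sorted tumour cells, 1 per group. Cell Ranger 6.0.2 and mm10 are named in the submitters' processing notes. Filtering left out 26 Momordicine-I and 25 vehicle barcodes below 200 genes, and 297 and 253 others whose mitochondrial share exceeded 10%.

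UMIs were summed over cells and given as CPM. Ratios have exact conditional binomial intervals with UMIs as units, and shares have Clopper-Pearson intervals (scipy 1.17.1). Genes with at least 20 UMIs were measured. Fold limits were 1.5 between libraries and 2 between cell types. The ratio code was tested on simulated UMI sums with counting error only. That simulation had no variation between cells, so it does not show how the intervals behave under such variation. Intervals cover counting error only.

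Scrublet in scanpy 1.11.5 marked 1 Momordicine-I and 2 vehicle barcodes and was taken not to have worked. Doublets therefore stayed in, and an alternative removed the highest scoring 164 and 98 barcodes, 6 and 2 of them Treg cells.

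Named genes needed 50 UMIs, 50 CPM in a library, UMIs in 5 cells and no cell with over 25% of the UMIs. They were ranked by how far the interval lay from 1, 12 in each direction between libraries, and 15 higher and 10 lower between cell types. Further members of the 24 gene lists are named after their values were seen. Some genes that the rule or lists would name are not reported here, though counts and medians over lists include them. The cells, lists and limits were chosen with earlier results of these data known.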

Additional observations from a re-analysis of the deposited data

How the results depend on the processing

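The lower share of Treg cells among filtered barcodes held under all alternatives run, with ratios of 0.441 to 0.549. All of these required a Foxp3 UMI. They left out T cells without one that held Il2ra, Ikzf2 and Ctla4, 55 with Momordicine-I and 24 with vehicle. Since they were more numerous with Momordicine-I, counting them beside the 68 Momordicine-I and 106 vehicle Treg cells would bring the shares closer. That ratio was not calculated. In these cells Ikzf2 had 384 CPM with Momordicine-I and 440 CPM with vehicle, and Trdc 364 CPM with Momordicine-I and 174 CPM with vehicle. Whether they are Treg cells was not tested. Among T cells the ratio was turned to 1.19 within T cells with a Cd4 and no Cd8a or Cd8b1 UMI, to 1.23 when a Trdc UMI was barred as well, and to 1.03 within T cells with a Cd4 UMI, each with an interval that spans 1. It was 0.903 without other-lineage cells. The denominator of all T cells with a Cd4 UMI, the removal of other-lineage cells and that of barcodes over 50000 UMIs were chosen after seeing the data. Counts of genes depended on depth and filters. Against 763 higher and 1135 lower with Momordicine-I, cells thinned to 2000 UMIs gave 327 and 395, a minimum of 50 UMIs 327 and 532, and a minimum of 1 UMI 2098 and 2076, where 50.3% of the genes past the fold were higher, against 40.2%. The mean of cells' CPM gave 1179 higher. Against 291 genes higher and 53 lower in Treg than in Foxp3-negative Cd4 T cells, thinned cells gave 102 and 33, a minimum of 50 UMIs 159 and 24, and a minimum of 1 UMI 506 and 287. Counts lower in Treg cells were 98 by the mean of cells' CPM, 83 after centring on the median of all genes, 541 against all other T cells, 101 without other-lineage cells and 83 without barcodes over 50000 UMIs. The causes of these shifts were not tested.

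Over single genes and lists, 45 log2 ratios that had been past the fold limit changed sign, all Momordicine-I over vehicle, and are given below as turned. Sign changes of ratios inside the limit, such as those of Mki67 and the cell cycle and interferon medians, are not among them. Of all the others, 720 moved beyond the counting interval (for a list, the median half-width of its genes' intervals) and 3541 did not. Without other-lineage cells the turned values were 0.39 for Birc5, -1.28 for Cbfa2t3, -0.23 for Ccl5, -0.46 for Cd200, 0.27 for Cdk1, 0.79 for Cenpf, 0.51 for Cks1b, 0.53 for Hist1h2ap, 0.0054 for Hk2, -0.69 for Ifi206, -1.43 for Il17a, -0.13 for Itgb1, -0.11 for Lrrk1, 0.41 for Nusap1, -0.30 for Relb, -0.36 for Rtp4, 0.14 for Smc2, 0.41 for Stmn1, 0.13 for Tgfbi, 1.00 for Tpx2 and 0.044 for Ube2c. In thinned cells they were 0.23 for Cdk1, 1.64 for Cenpf, 0.64 for Cks1b, -0.12 for Itgb1, -0.45 for Relb, 0.057 for Skp1a, 1.00 for Smc2, 0.53 for Stmn1, -0.23 for Tnf and 0.23 for Ube2c. With the Cd4 gate they were 0.052 for Dgat2, 0.092 for Fn1, -0.56 for Il17a, 0.14 for Lif, 0.013 for Socs3, 0.19 for Tgfbi and 0.22 for Tpx2. By the mean of cells' CPM they were 0.029 for Cks1b, 0.11 for Tpx2 and 0.26 for Ube2c. With doublets removed Msmo1 had -0.014 and Tnf -0.047, with at least 2 Foxp3 UMIs Il17a had -0.69, and without barcodes over 50000 UMIs Tnfrsf1a had 0.14. No paired analysis was possible because each group has 1 library and the labels give no replicate numbers.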

Other observations

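Several gene groups of Treg cells had few members past 1.5-fold between the libraries. The 15 MHC class I presentation genes had a median log2 ratio of -0.03, Momordicine-I over vehicle, with Psmb9, an immunoproteasome subunit, higher and none lower. Without other-lineage cells the median was -0.21, and Tap1, a peptide transporter, was lower (ratio 0.622, 0.455 to 0.840) and none higher. The 8 measured GIMAP genes, small GTPases of lymphocyte survival, had a median of -0.32, and -0.35 without other-lineage cells, with none past 1.5-fold in either set. The 15 small GTPase and actin genes had a median of 0.08, and -0.08 without other-lineage cells, again with none past the limit in either set. Of 15 genes of interleukin-2 receptor signalling 2 were lower, Socs1 and Socs3, which feed back on cytokine receptors, and 0 higher. Of all measured genes 13.3% were lower and 8.91% higher, so the lower share was near that of all genes. Without other-lineage cells 3 were lower (20%), Socs1, Socs2 and the survival factor Bcl2, and 0 higher, where 12.6% of all genes were lower. Socs1 had 55.1 CPM with Momordicine-I and 85.9 CPM with vehicle (ratio 0.641, 0.452 to 0.898), and a ratio of 0.584 (0.368 to 0.902) without other-lineage cells.

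Cytokines of helper T cells were rare. Il17a had 121 CPM with Momordicine-I and 8.06 CPM with vehicle, but a single Momordicine-I cell held 93.5% of its UMIs, and without other-lineage cells 1 Momordicine-I and 5 vehicle UMIs were left. Il10 had 25.9 CPM in 7 Momordicine-I cells and 28.2 CPM in 12 vehicle cells.

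Foxp3 was also seen in filtered barcodes outside the gate. Of barcodes with over 1% neutrophil RNA, 39 of 2772 with Momordicine-I (1.41%) and 44 of 1997 with vehicle (2.20%) had a Foxp3 UMI. Of these, 23 Momordicine-I and 18 vehicle barcodes held Il2ra, Ikzf2 and Ctla4 together.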
